A study of Mus musculus with 20 samples.

Results

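The genes described are the 83 nuclear genes for subunits of the mitochondrial respiratory chain and the ATP synthase, out of 18193 genes measured. They were taken by symbol, from probe sets that name a single gene: those beginning with Ndufa, Ndufb, Ndufc, Ndufs, Ndufv, Uqcr, Cox4i, Cox5, Cox6, Cox7, Cox8 or Atp5, together with Sdha to Sdhd and Cyc1, and without the Ndufaf assembly factors. Where several probe sets of the array named 1 gene, the one with the highest mean over the 20 arrays stood for it, so 170 probe sets gave 83 genes. A further 10 probe sets name a member symbol together with another gene and were left out. Ndufa11 and Ndufs6 were therefore not analysed here, and Ndufb4 was read only by a dim probe set. They comprised 34 genes of complex I, 4 of complex II, 9 of complex III, 17 of complex IV, 17 of the ATP synthase (complex V), and the pair Ndufa4 and Ndufa4l2. The subunits encoded by mitochondrial DNA were not analysed here.

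The arrays held RNA from livers of male C57BL/6 mice, all of them labelled conditional APCko, so that the controls carry the conditional Apc allele too. Apc restrains beta-catenin signalling. Each group had 5 arrays: untreated non-tumour liver (H2O_NT), non-tumour liver under phenobarbital (PB_NT), carcinoma without phenobarbital (APCko_Carcinoma) and adenoma under phenobarbital (APCko_Adenoma). The protocols give 0.75 mg of tamoxifen, the drug that activates inducible Cre, by a single injection at an age of 6 weeks. From 1 week later the animals had 9 months of standard chow or of a diet with 0.05% phenobarbital, a nuclear receptor activator that promotes liver tumours. The series' design text names the carcinogen DEN in place of tamoxifen, and the untreated group is named for water while its protocol names chow; neither point was settled. The promoter that drives Cre is not named in the labels, no wild-type liver was analysed, and nothing in the labels ties the 5 samples of a group to 5 animals, so a p-value here covers the spread between samples, which may be technical. The tumour groups differ in diet as well as in stage, which cannot be told apart, and each was therefore set against the non-tumour liver of its own diet.

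The respiratory chain sits in the inner mitochondrial membrane. Complex I takes electrons from NADH and complex II, which is also the succinate dehydrogenase of the citric acid cycle, takes them from succinate. Ubiquinone carries them to complex III and cytochrome c to complex IV, where oxygen is reduced, and the ATP synthase uses the proton gradient so built. Hepatocytes are rich in mitochondria and use this ATP for glucose and urea synthesis, and several subunits of complex IV exist as isoforms for muscle, lung or testis.

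The promoters of 6 genes are printed because these genes stand for the patterns described further on: 3 subunits of complex II and the Rieske protein gene Uqcrfs1, lower in both tumour types, and Uqcrh and Cox6a1, whose adenoma differences run opposite to each other. Each line gives the 120 bases just before the RefSeq transcription start (assembly GRCm38.p6), 5′ to 3′ on the gene's own strand. Capitals mark matches to 2 of 3 motifs searched on both strands, the NRF1 motif (GCGC, any base, TGCGC) and the ETS motif CCGGAAG bound by GABP; the YY1 motif AAGATGGCG, the other one searched, had no match in these bases. No match overlapped another.
Sdha (chr13:74350241-74350360, minus strand): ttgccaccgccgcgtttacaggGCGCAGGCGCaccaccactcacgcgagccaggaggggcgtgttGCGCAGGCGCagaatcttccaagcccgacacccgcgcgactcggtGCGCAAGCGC
Sdhb (chr4:140961151-140961270, plus strand): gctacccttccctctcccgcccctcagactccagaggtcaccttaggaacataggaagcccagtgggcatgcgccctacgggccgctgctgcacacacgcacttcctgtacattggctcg
Sdhd (chr9:50603850-50603969, minus strand): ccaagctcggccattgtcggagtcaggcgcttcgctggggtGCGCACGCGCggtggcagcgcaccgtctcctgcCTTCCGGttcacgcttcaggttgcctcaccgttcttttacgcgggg
Uqcrfs1 (chr13:30545317-30545436, minus strand): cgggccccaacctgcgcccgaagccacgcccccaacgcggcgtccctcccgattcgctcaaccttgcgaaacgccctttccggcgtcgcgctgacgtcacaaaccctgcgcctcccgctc
Uqcrh (chr4:116075071-116075190, minus strand): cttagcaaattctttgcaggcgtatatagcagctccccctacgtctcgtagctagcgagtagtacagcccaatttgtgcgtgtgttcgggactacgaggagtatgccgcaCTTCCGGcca
Cox6a1 (chr5:115348959-115349078, minus strand): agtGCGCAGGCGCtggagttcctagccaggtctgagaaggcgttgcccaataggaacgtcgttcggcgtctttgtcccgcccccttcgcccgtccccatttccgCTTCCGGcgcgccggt

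In the Sdha promoter the NRF1 motif matched at 3 places, its first base at -98, -55 and -10, where -1 is the base before the transcription start. The Sdhd promoter had an NRF1 match at -79 and an ETS match at -46. Uqcrh had an ETS match at -10, and Cox6a1 an NRF1 match at -117, an ETS match at -16 and a further NRF1 match at -162, beyond the printed bases. Sdhb had its ETS match at base 7 after the start, outside the printed bases, and Uqcrfs1 had none of these letters in its window. RefSeq promoters of 300 bases, 250 before and 50 after the start, were matched for 67 of the 83 genes, with 72 promoters in all. NRF1 letters were in 22.2% of them, against 4.6% of all 32851 promoters in the table and 7.43% of those of the genes measured here. For the ETS motif the shares were 23.6% against 8.86% and 13%, and for YY1 8.33% against 1.4% and 2.09%. A match describes letters and no binding was measured.

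The values are log2 expression values, 1 per array, on which 1 unit is a doubling. Of the 83 genes 74 lay at or above the median gene, and the middle member lay at the 98.5th percentile of all genes. The 9 below the median gene were Cox4i2, Cox6a2, Cox6b2, Cox7a1, Cox7b2, Cox7c, Cox8b, Ndufa4l2 and Ndufb4. Because most members lie near the top of the array's range, the level of the top of that range matters for them. The gene at the 98.5th percentile read 12.69 on average in untreated liver (12.66 to 12.71), 12.70 under phenobarbital, 12.39 in carcinoma (12.36 to 12.43) and 12.61 in adenoma (12.54 to 12.66), while the median gene read 6.57, 6.60, 6.79 and 6.68. The upper end of the carcinoma arrays was thus lower by about as much as the members' median difference reported further on, and a change in these genes and an effect of array scaling cannot be told apart from this alone.

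The tissue labels were set against marker genes of liver cells. The mean of 9 hepatocyte markers ran from 14.02 to 14.26 in untreated liver, from 13.79 to 13.92 under phenobarbital and from 12.78 to 13.85 in adenoma. In carcinoma it was 10.56, 6.63, 10.74, 11.22 and 9.08 on arrays 1 to 5. Untreated arrays 3 and 4 stood apart from the other untreated ones, with proliferation marker means of 6.68 and 6.63 against 4.99 to 5.55 and stellate marker means of 8.72 and 8.64 against 7.66 to 7.97. All 9 hepatocyte markers and 5 of 6 endothelial markers fell in carcinoma, 6 of 8 stellate cell and fibroblast markers rose, and all 4 proliferation markers rose in both tumour types. In adenoma 1 of 9 hepatocyte markers fell, and of the 8 stellate markers 4 rose and 2 fell. These are bulk samples, so fewer cells of a type and less RNA per cell cannot be told apart.

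The first comparison was of non-tumour liver with and without phenobarbital. None of the 83 genes passed an adjusted p of 0.05 in limma, and none had an unadjusted p under 0.05 either, while 0.225% of all genes measured were called, 0.203% higher and 0.022% lower. Phenobarbital arrays lay wholly above untreated arrays for 1 member and wholly below for 3, against 2.43% and 2.27% of all genes. The median difference, phenobarbital minus untreated, was -0.04 for the 83 genes and 0.001 for all genes. Without untreated arrays 3 and 4 none of the 83 genes was called either. The single differences ran from -0.53 to 0.26, and 58 of 83 were below 0. Arrays of the same group lay close together for these genes, with a median SD of 0.076 in untreated liver and 0.059 under phenobarbital, against 0.166 and 0.138 over all genes. The p-values rest on 1 spread per gene shared by all 4 groups, and in the tumour groups that median SD was 0.219 and 0.232. Small differences between the liver groups may therefore be missed. In a fit of only these 2 groups none of the 83 genes was called either, against 193 higher and 85 lower of all genes.

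**Figure D1:**
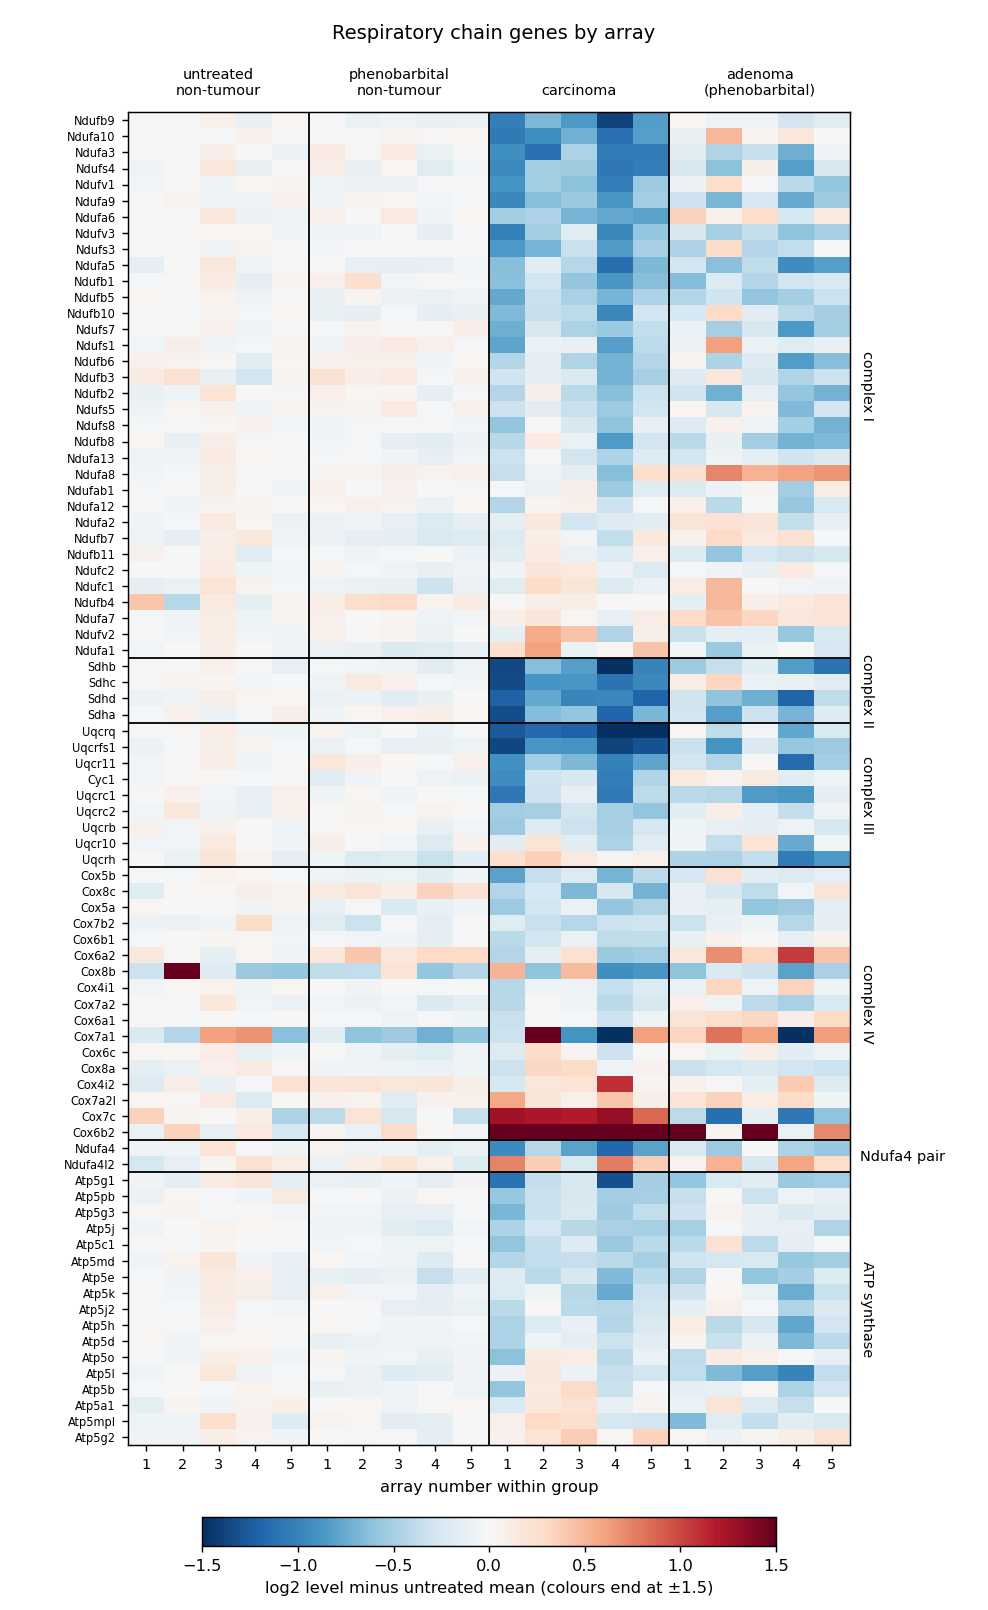
Heat map of the 83 genes (one line each, grouped by complex and ordered within it by the carcinoma difference) on the 20 arrays; colour is the log2 value minus the gene's mean in untreated liver, and colours end at 1.5 on either side. Most lines of complexes I to III are below the untreated mean on all 5 carcinoma arrays, while Cox6b2 and Cox7c stand above it.

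Carcinoma was compared with untreated non-tumour liver. There 49 of the 83 genes were lower and 4 were higher at an adjusted p under 0.05, where 69.2% of all genes were called, 37.7% lower and 31.5% higher. The median difference was -0.33, against -0.12 over all genes, and 69 of 83 differences were below 0. Without untreated arrays 3 and 4 there were 42 lower and 4 higher, with a median of -0.31. Complex II and complex III had the largest median falls, at -1.03 and -0.59. In 42 of the genes the carcinoma arrays all lay below the untreated arrays, which 27.8% of all genes did, and in 2 they all lay above, which 25.6% did. The size of the shift depended on how the arrays were scaled. With quantile normalization over the genes 29 were lower and 13 higher, beside 5970 lower and 5426 higher of all 18193 genes. The median was then -0.08 against -0.06 over all genes, so the medians were close. With each array centred on its median gene 66 were lower and 2 higher, with a median of -0.55 against -0.34 for all genes.

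Complex II fell as a whole in carcinoma. Sdha is its flavoprotein, which oxidises succinate. It read 12.05, 12.15, 11.97, 12.05 and 12.16 in untreated liver and 10.75, 11.43, 11.49, 10.88 and 11.39 in carcinoma. Every carcinoma array was below every untreated array, and carcinoma arrays 1 and 4 were the lowest. The difference was -0.89 (SE 0.14, adjusted p = 1.8e-05), a 1.85-fold lower level.

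Sdhb, the iron-sulphur subunit, read 12.87, 12.86, 12.93, 12.87 and 12.72 in untreated liver and 11.50, 12.21, 12.02, 11.35 and 11.85 in carcinoma. Again arrays 1 and 4 of carcinoma were lowest and the groups were apart, with a difference of -1.06 (SE 0.16, adjusted p = 8.7e-06). The membrane anchors Sdhc and Sdhd hold the ubiquinone site. Sdhc read 10.23, 10.30, 10.30, 10.22 and 10.24 against 8.92, 9.37, 9.39, 9.15 and 9.29, a difference of -1.03 (SE 0.10, adjusted p = 2e-08). Sdhd read 11.68, 11.71, 11.85, 11.79 and 11.79 against 10.54, 10.99, 10.77, 10.79 and 10.56, a difference of -1.03 (SE 0.13, adjusted p = 8.2e-07). Neither anchor's groups overlapped, and the spread of Sdhc over the carcinoma arrays was 0.20 (SD, n = 5). A further bright probe set for Sdha differed by -1.5, and the second probe sets of Sdhc and Sdhd both by -0.77. All 4 genes stayed called lower under every alternative run, with a median of -0.87 under quantile normalization and -1.25 under centring.

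In complex III 7 of 9 genes fell. Uqcrq, a small subunit next to the ubiquinone site, read 12.84, 12.88, 12.98, 12.81 and 12.80 in untreated liver and 11.60, 11.70, 11.65, 11.27 and 11.32 in carcinoma, the largest fall among the 83 genes at -1.35 (SE 0.12, adjusted p = 9.3e-09). Its probe set is of a kind whose probes may match several transcripts, and without such probe sets Uqcrq was read by a dim one at -0.28 (adjusted p = 0.082). Uqcrfs1, the Rieske iron-sulphur protein that passes electrons to cytochrome c1, read 12.45, 12.53, 12.64, 12.59 and 12.52 against 11.18, 11.67, 11.65, 11.16 and 11.24, a 2.24-fold fall (-1.17, SE 0.12, adjusted p = 5e-08). All carcinoma arrays of both genes lay below all untreated ones. Cyc1, which is cytochrome c1, fell by 0.59 (adjusted p = 0.00037), and the core proteins Uqcrc1 and Uqcrc2 fell by 0.59 and 0.48. Uqcr11 and Uqcrb were the other called genes, at -0.78 and -0.37, and Uqcrb stood at -0.06 (adjusted p = 0.53) under quantile normalization. The exceptions were Uqcr10, at -0.15, and Uqcrh, the acidic hinge protein that helps cytochrome c dock, at 0.17 (adjusted p = 0.2), which under quantile normalization was called at 0.52 (adjusted p = 0.00061).

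In complex I 21 of 34 genes fell and none rose, with a median of -0.36; under quantile normalization 14 fell and 5 rose, with a median of -0.20. Of the core subunits, Ndufv1 fell by 0.72 (adjusted p = 7.2e-05), Ndufs3 by 0.65, Ndufs7 by 0.47 and Ndufs1 by 0.44. Ndufs1 missed the threshold under quantile normalization (adjusted p = 0.054). Ndufs8 was called at -0.31 (adjusted p = 0.045), a call lost without any one of the untreated arrays or carcinoma array 1, 3 or 4 (0.051 to 0.13), and it stood at -0.03 (0.87) under quantile normalization. Ndufv2 differed by 0.10 (adjusted p = 0.56) and was called higher under quantile normalization, at 0.37 (0.043). The largest falls were in accessory subunits. Ndufb9, which sits in the membrane arm, read 12.94, 12.97, 13.04, 12.85 and 12.99 in untreated liver and 11.93, 12.29, 12.10, 11.57 and 12.12 in carcinoma (-0.95, SE 0.10, adjusted p = 9.7e-08). Ndufa10 read 12.08, 12.07, 12.07, 12.16 and 12.08 against 11.03, 11.18, 11.38, 10.97 and 11.26 (-0.93, SE 0.10, adjusted p = 8.9e-08). For both genes the groups were separate and carcinoma array 4 was the lowest. Ndufa3 fell by 0.92 and Ndufs4, needed for the assembly of the electron input part, by 0.82. At the other end Ndufa1 stood at 0.24 (adjusted p = 0.08).

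Of the 17 complex IV genes 6 fell (35.3%, near the 37.7% of all genes) and 3 rose (17.6% against 31.5%), with a median of -0.22 that turned to 0.11 under quantile normalization, where 2 fell and 5 rose. The 6 include Cox8c, with a mean of 7.70 in carcinoma against 8.16 in untreated liver, and the very dim Cox7b2, with 3.41 against 3.73. Among the subunits that liver uses, Cox5b fell by 0.49 (adjusted p = 0.00046), Cox5a by 0.39 and Cox6b1 by 0.31. None of these 3 calls held under quantile normalization, where they stood at -0.12 (adjusted p = 0.39), -0.02 (0.91) and 0.08 (0.36). Cox6c, Cox7a2 and Cox8a stood at -0.04, -0.22 and 0.05 without a call, and Cox6c and Cox8a were called higher under quantile normalization, at 0.33 and 0.32. Cox4i1, the regulatory subunit, was at the threshold (-0.22, adjusted p = 0.046), which it missed without any one of the 5 untreated arrays or carcinoma array 1, 4 or 5 (0.051 to 0.13), and it stood at 0.16 under quantile normalization. Cox6a1, the brightest of them, stood at -0.15 (adjusted p = 0.095). Ndufa4, once counted to complex I and since found in complex IV, fell by 0.83 (adjusted p = 7.8e-06). Its paralogue Ndufa4l2, a gene induced in low oxygen, stood at 0.40 (adjusted p = 0.051), and passed without untreated array 4 (0.46, adjusted p = 0.04) or carcinoma array 3 (0.56, 0.0043).

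The largest rise was in Cox6b2, the testis isoform of the Cox6b subunit. It read 5.0, 5.45, 4.97, 5.24 and 4.84 in untreated liver and 6.90, 7.91, 8.0, 6.93 and 7.35 in carcinoma. All carcinoma arrays were above all untreated ones and 2 and 3 were highest, a 4.99-fold difference (2.32, SE 0.33, adjusted p = 4.8e-06) in a gene that was dim outside the tumours. Cox7c read 6.82, 6.51, 6.47, 6.56 and 6.01 against 7.73, 7.68, 7.66, 7.78 and 7.34 (1.16, SE 0.18, adjusted p = 1.3e-05). Both probe sets of Cox7c were dim in all groups, and both were higher in carcinoma. Cox7c is a subunit of which most tissues hold much mRNA, and whether these probe sets report its main transcript was not tested. The other 2 genes called higher were Cox7a2l at 0.27 (adjusted p = 0.031) and the ATP synthase gene Atp5g2 at 0.20 (adjusted p = 0.038). Cox7a2l missed the threshold without untreated array 4 (adjusted p = 0.088) or without carcinoma array 1 (0.11) or 4 (0.075), and stood at 0.05 (0.68) under centring. Atp5g2 missed it without untreated array 1 (0.071), 2 (0.073) or 5 (0.075) or carcinoma array 2 (0.056), 3 (0.11) or 5 (0.10), and stood at -0.02 under centring.

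Of the 17 ATP synthase genes 10 fell and 1 rose in carcinoma, with a median of -0.30 that became 0.07 under quantile normalization. The alpha and beta subunits of the catalytic head, Atp5a1 and Atp5b, stood at 0.01 and -0.11 and were not called. With the mean of its probe sets Atp5a1 was lower in carcinoma. Atp5c1, counted among the 10, was higher with the mean of its probe sets and without probe sets of shared probes (values further on). The 3 genes that encode the same c subunit of the rotor ring gave different calls: Atp5g1 fell by 0.71 and Atp5g3 by 0.43, while Atp5g2 was the gene called higher. With the mean of all its probe sets Atp5g1 stood at -0.01 (adjusted p = 0.95), and under quantile normalization Atp5g3 stood at -0.10 (0.34). Atp5g1 read 12.14, 12.06, 12.33, 12.39 and 12.07 in untreated liver and 11.09, 11.84, 11.95, 10.88 and 11.69 in carcinoma, with carcinoma arrays 1 and 4 well below the others.

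**Figure D2:**
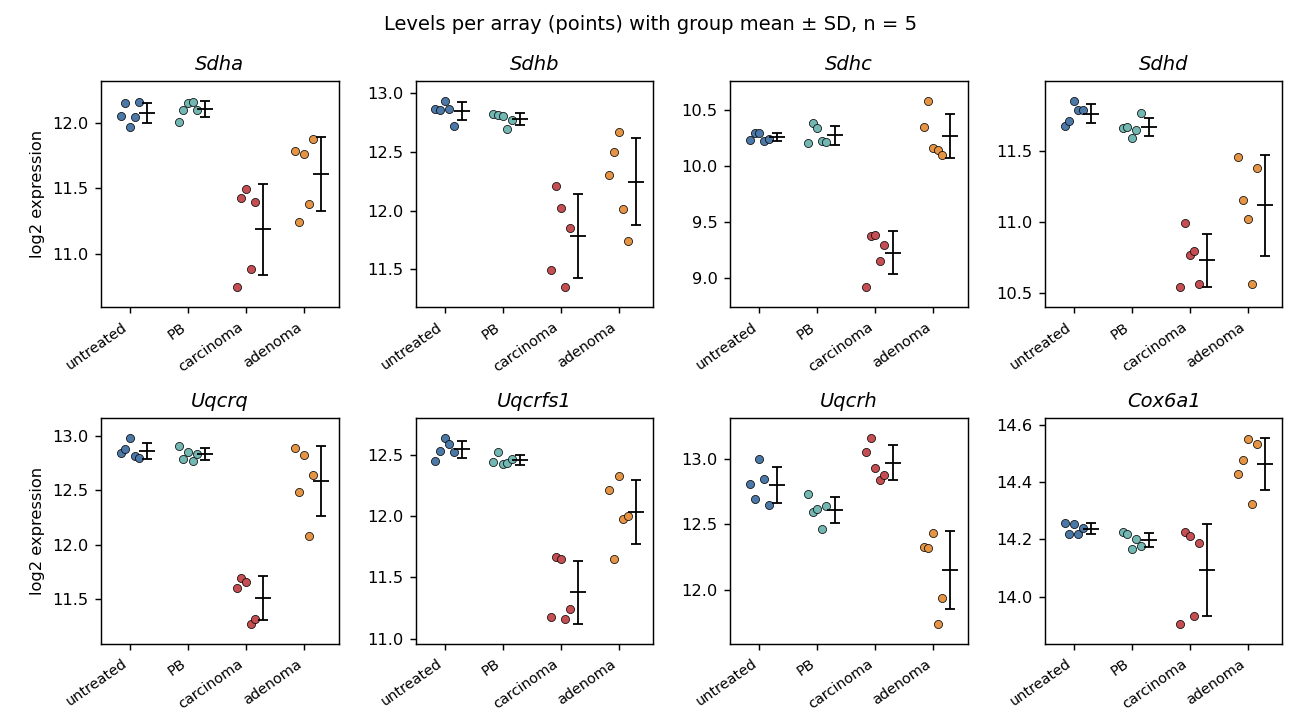
Log2 values of selected genes on each of the 20 arrays, 1 point per array, with the mean and SD of each group of 5 beside the points. Sdha, Sdhb and Sdhd read lower in both tumour groups, Sdhc in carcinoma, Uqcrh is lowest in adenoma, and the 5 adenoma arrays of Cox6a1 are above all others.

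The arrays of the carcinoma group differed among themselves. Taken over the 74 brighter genes, the median distance to the untreated mean was -0.47, -0.18, -0.24, -0.55 and -0.37 on carcinoma arrays 1 to 5. The hepatocyte marker means of the same arrays were 10.56, 6.63, 10.74, 11.22 and 9.08. The part of cell composition in the falls was not tested. The SD of the 83 genes within the carcinoma group had a median of 0.219, close to the 0.211 of all genes.

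Adenoma under phenobarbital was compared with phenobarbital non-tumour liver. Here 22 of the 83 genes were lower and 4 higher, where 24.7% of all genes were called, 11.3% lower and 13.5% higher. The groups did not overlap for 19 members that were lower and 5 that were higher, against 9.03% and 10.4% of all genes. The median was -0.16 against -0.03 over all genes, and none of the called genes differed by 2-fold or more. Quantile normalization gave 16 lower and 4 higher with a median of -0.09, against -0.03 over all genes. Centring gave 26 lower and 1 higher with a median of -0.24, against -0.11. By complex, 11 of 34 genes of complex I (32.4%), 3 of 4 of complex II and 4 of 9 of complex III (44.4%) fell. In complex IV 2 of 17 fell and in the ATP synthase 2 of 17, each 11.8% and so near the 11.3% of all genes. The risers were 3 genes of complex I (8.8%) and 1 of complex IV (5.9%), against 13.5% of all genes.

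Complex II again had the largest median, at -0.51. Sdha read 12.01, 12.10, 12.15, 12.16 and 12.10 under phenobarbital and 11.79, 11.24, 11.76, 11.38 and 11.88 in adenoma (-0.49, SE 0.14, adjusted p = 0.015). Sdhd read 11.66, 11.67, 11.59, 11.64 and 11.77 against 11.46, 11.16, 11.02, 10.57 and 11.38 (-0.55, SE 0.13, adjusted p = 0.004). For both genes each adenoma array was below each phenobarbital array, and adenoma array 4 was the lowest for Sdhd while array 2 was for Sdha. Sdhb read 12.82, 12.81, 12.80, 12.69 and 12.77 against 12.31, 12.50, 12.67, 12.02 and 11.75 (-0.53, SE 0.16, adjusted p = 0.02). Its groups were apart too, but the call rested on adenoma arrays 4 and 5: without array 4 the difference was -0.47 (adjusted p = 0.05, not under the threshold) and without array 5 -0.41 (adjusted p = 0.056). Sdhc did not share the fall, with 10.21, 10.39, 10.34, 10.23 and 10.22 under phenobarbital and 10.35, 10.58, 10.16, 10.14 and 10.10 in adenoma (-0.01, SE 0.10, adjusted p = 0.97). The 2 groups of Sdhc overlapped over most of their range.

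In complex III the falls were of Uqcr11 (-0.55), Uqcrc1 (-0.51), Uqcrh and Uqcrfs1. Uqcrh read 12.73, 12.59, 12.62, 12.46 and 12.64 under phenobarbital and 12.33, 12.32, 12.43, 11.74 and 11.94 in adenoma, where all 5 arrays were below the phenobarbital arrays (-0.45, SE 0.12, adjusted p = 0.0076). The second probe set of Uqcrh differed by -0.45. Uqcrfs1 read 12.44, 12.52, 12.42, 12.44 and 12.47 against 12.22, 11.65, 12.32, 11.97 and 12.00 (-0.43, SE 0.12, adjusted p = 0.013), again with no overlap and with adenoma array 2 the lowest. Uqcrc1 missed the threshold when any one of the 5 phenobarbital arrays or adenoma array 3 or 4 was left out (adjusted p of 0.051 to 0.088).

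The complex I falls included Ndufa5 (-0.52, adjusted p = 0.012), Ndufa9 (-0.50, adjusted p = 0.0013) and Ndufs7 (-0.47, adjusted p = 0.0055), a core subunit that holds the last iron-sulphur centre before ubiquinone. Ndufs7 was the only one of the 6 measured core subunits called in adenoma. Ndufa9 read 11.76, 11.86, 11.84, 11.78 and 11.79 under phenobarbital and 11.50, 11.13, 11.56, 11.06 and 11.28 in adenoma, without overlap. Against these, Ndufa8 was higher: it read 11.83, 11.84, 11.89, 11.85 and 11.88 under phenobarbital and 12.04, 12.53, 12.31, 12.40 and 12.46 in adenoma (0.49, SE 0.12, adjusted p = 0.0065), and all adenoma arrays lay above all phenobarbital arrays. Ndufb7 (0.30, adjusted p = 0.03) and Ndufa7 (0.28, adjusted p = 0.0096) were the other complex I genes called higher. Under centring they stood at 0.22 (adjusted p = 0.13) and 0.20 (0.083), and Ndufb7 also missed the threshold without phenobarbital array 2, 4 or 5 or adenoma array 2, 3 or 4 (0.051 to 0.073).

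In complex IV Cox6a1, the form of the Cox6a subunit used outside muscle, was the gene that rose. It read 14.22, 14.22, 14.17, 14.20 and 14.18 under phenobarbital and 14.43, 14.48, 14.55, 14.33 and 14.54 in adenoma. The 5 adenoma arrays were the 5 highest of all 20 (0.27, SE 0.08, adjusted p = 0.014), though under centring the difference was 0.19 (adjusted p = 0.12). Cox8c and Cox7c were called lower, at -0.32 and -0.52, both with overlapping groups. Cox8c missed the threshold when any one of the 5 phenobarbital arrays or adenoma array 1, 2 or 3 was left out (adjusted p of 0.051 to 0.12). The Cox7c call was lost without phenobarbital array 2, 3 or 4 or adenoma array 2, 4 or 5 (adjusted p of 0.056 to 0.12). Cox6b2 read 5.13, 5.0, 5.39, 5.12 and 5.05 against 6.63, 5.14, 7.29, 5.0 and 5.82: adenoma arrays 1 and 3 were high, and 2 and 4 lay in the phenobarbital range (0.84, SE 0.33, adjusted p = 0.076). Without adenoma array 2 or 4 it passed, at 1.05 (adjusted p = 0.029) and 1.08 (0.021). Of the ATP synthase, Atp5l, subunit g at the dimer interface, read 12.69, 12.63, 12.53, 12.57 and 12.67 against 12.35, 12.06, 11.90, 11.72 and 12.35 (-0.54, SE 0.12, adjusted p = 0.002), and Atp5md stood at -0.33 (adjusted p = 0.0069).

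Among the adenoma arrays the median distance of the 74 brighter genes to the untreated mean was -0.19, -0.11, -0.13, -0.43 and -0.22. The hepatocyte marker means of these arrays were 12.91, 13.32, 13.09, 13.85 and 12.78, and the stellate marker means 7.97, 8.78, 9.11, 9.74 and 8.35. Their part in the result was not tested.

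**Figure D3:**
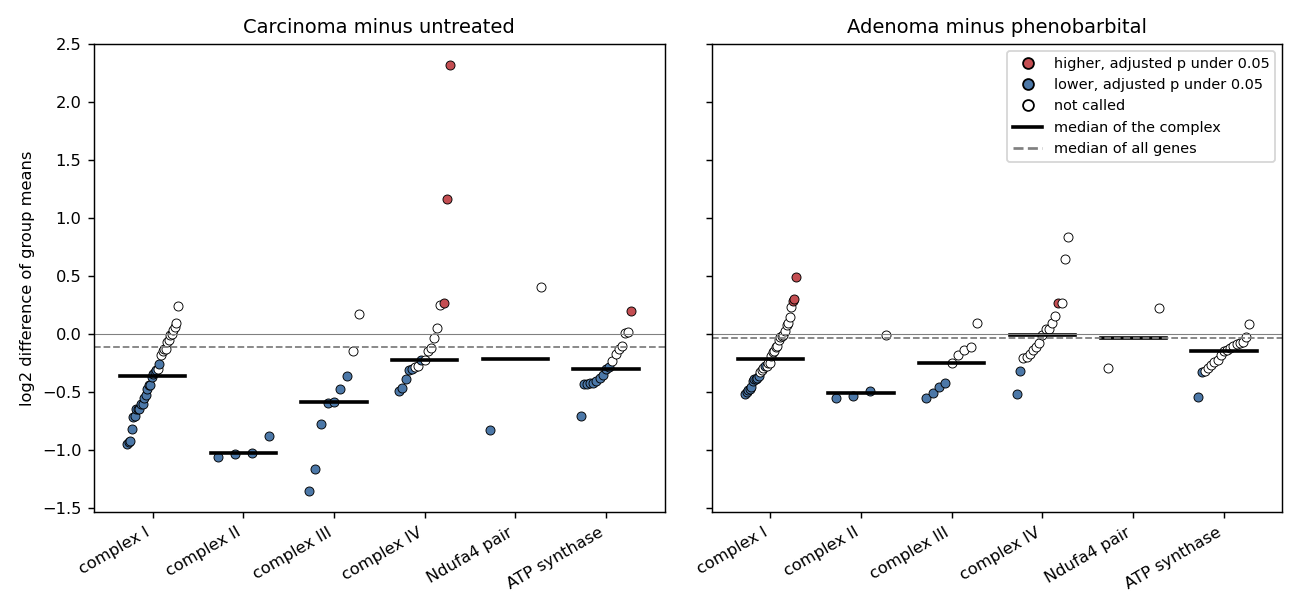
Log2 difference of each gene by complex, carcinoma minus untreated and adenoma minus phenobarbital, 1 point per gene with filled points for an adjusted p under 0.05 and a bar at the median. Complex II has the lowest median in both comparisons, -1.03 and -0.51; the complex IV and ATP synthase medians in carcinoma, -0.22 and -0.30, become 0.11 and 0.07 under quantile normalization, and the complex IV median in adenoma, -0.01, becomes 0.06.

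The 2 tumour comparisons share no array, though their calls rest on the same spread per gene. Of the 49 genes lower in carcinoma 17 were also lower in adenoma (34.7%, where 26.5% of all 83 were). These were 77.3% of the 22 lower in adenoma, where 59.0% of all 83 were lower in carcinoma. The same overlap over all genes was not counted. A further 32 were called lower in carcinoma without a call in adenoma, 4 lower in adenoma without a call in carcinoma, and 22 had no call in either. Over the 83 genes the differences had a Pearson r of 0.47 and a Spearman rho of 0.42, given as a description since genes are not independent. The carcinoma difference was the lower of the 2 in 60 of 83 genes, and in 10104 of all 18193. The median of adenoma difference less carcinoma difference was 0.20 in the 83 genes, against 0.08 over all genes. Under quantile normalization it was 0.016 against 0.036.

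**Figure D4:**
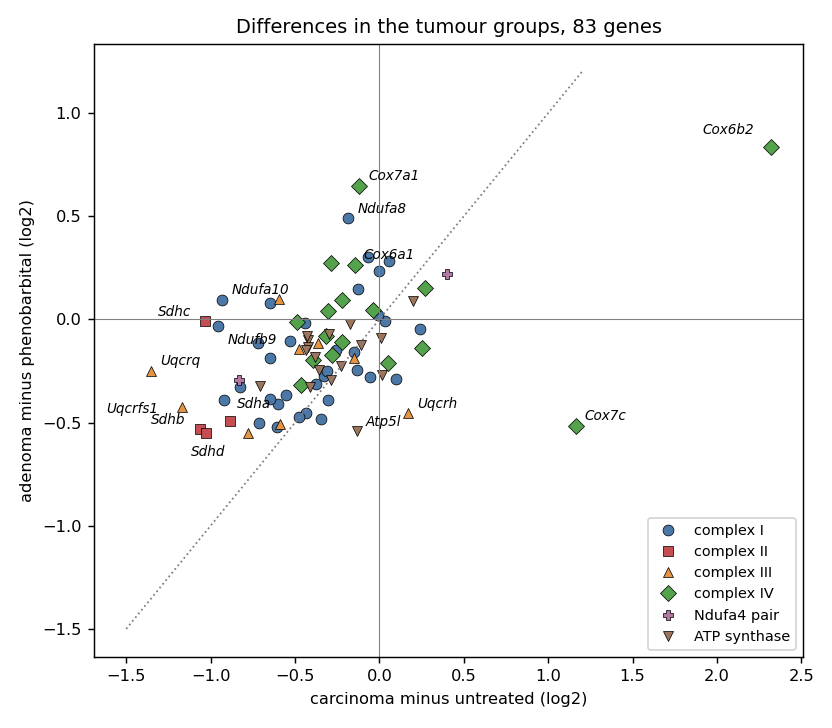
Log2 difference in adenoma (vertical) against that in carcinoma (horizontal), 1 point per gene, shaped and coloured by complex, with the dotted line marking equal differences. Sdha, Sdhb and Sdhd lie low on both axes, Sdhc and Ndufa10 at about -1 in carcinoma and near 0 in adenoma, and Uqcrh and Cox7c below 0 in adenoma only.

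Whether a gene's difference itself was unlike in the 2 tumour types was tested as adenoma minus phenobarbital, less carcinoma minus untreated. In that test 20 genes were higher and 4 lower, where 46.7% of all genes were called, 23.2% higher and 23.5% lower; with quantile normalization it was 10 and 8, with centring 32 and 3, and 14 and 3 without untreated arrays 3 and 4. Sdhc differed by 1.03 between the tumours (adjusted p = 5.7e-06), and with it Ndufa10 by 1.02 (5.6e-06) and Ndufb9 by 0.93 (2.8e-05). In adenoma Ndufb9 read 12.99, 12.89, 12.88, 12.69 and 12.77 and Ndufa10 11.98, 12.59, 12.14, 12.26 and 12.09, both overlapping the phenobarbital arrays. Uqcrfs1 (0.74, adjusted p = 0.0013), Ndufa6 (0.73, 0.00038), Cyc1 (0.69, 0.0033), Ndufa8 (0.68, 0.0036) and Ndufv1 (0.61, 0.011) had the same direction. These 8 calls held under every alternative run. For Sdha and Sdhb the test gave 0.39 and 0.53 and no call, though Sdha passed without adenoma array 2 (adjusted p = 0.047) and Sdhb without carcinoma array 2 (0.023) or 3 (0.044) or adenoma array 4 (0.047) or 5 (0.015).

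Uqcrh ran the other way, with -0.63 (adjusted p = 0.0043): it read 13.05, 13.15, 12.93, 12.84 and 12.87 in carcinoma, and all 5 carcinoma arrays lay above all 5 adenoma arrays. Cox7c, read only by dim probe sets, differed by -1.68 (adjusted p = 2e-05) and Cox6b2 by -1.48 (0.014). The isoforms that belong to muscle and lung gave no call in either tumour type: Cox4i2 stood at 0.25 and -0.14, Cox6a2 at -0.29 and 0.27, Cox7a1 at -0.12 and 0.65 and Cox8b at -0.28 and -0.17 in carcinoma and adenoma. Cox6a2 in carcinoma did pass with the mean of probe sets (-0.32, adjusted p = 0.045), centring (-0.51, 0.0083), quantile normalization (-0.40, 0.029) and array weights (-0.36, 0.018), and without carcinoma array 3 (-0.42, 0.014). Cox7a1 was the most variable member in both tumour groups, with an SD of 1.34 and 1.07.

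Adenoma set directly against carcinoma also differs in diet. There 31 genes were higher (37.3%) and 9 lower (10.8%) in adenoma, with 62.3% of all genes called, 33.7% higher and 28.7% lower. The share higher was near that of all genes, and so was the median, at 0.12 against 0.10. The groups did not overlap for 7 members higher and 3 lower, against 21.8% and 20.1% of all genes. Quantile normalization gave 15 and 18 calls, beside 5298 and 5118 of all 18193 genes. Centring gave 41 and 5, beside 7868 and 4613. Ndufa10 was 1.05 higher in adenoma and Sdhc 1.04, and Uqcrh was lower by -0.81 and Atp5l by -0.52, each without overlap. Uqcrq was 1.08 higher, and 0.08 (adjusted p = 0.63) without probe sets of shared probes.

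**Figure D5:**
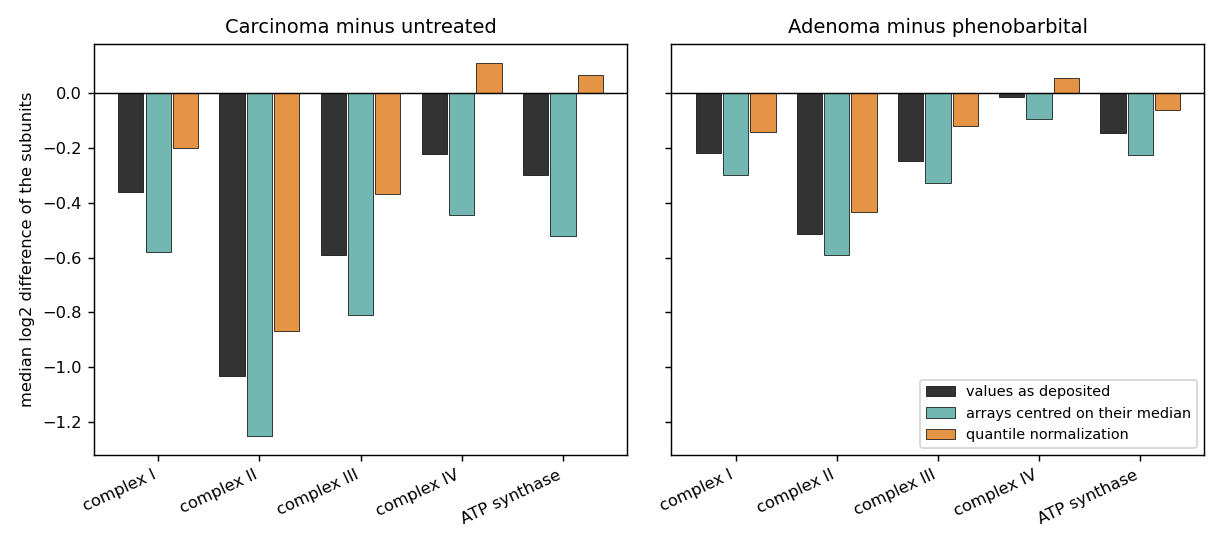
Median log2 difference of the genes of each complex, carcinoma minus untreated and adenoma minus phenobarbital, with the deposited values, with each array centred on its median gene and with quantile normalization. Complex II stays lowest, at -1.03, -1.25 and -0.87 in carcinoma, while the medians of complex IV in both comparisons and of the ATP synthase in carcinoma turn positive under quantile normalization.

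Genes that build and feed the chain were read alongside it. Of 46 assembly factors 27 fell (58.7%, against 37.7% of all genes) and 4 rose (8.7% against 31.5%) in carcinoma, with a median of -0.55, and 16 fell (34.8% against 11.3%) and 3 rose (6.5% against 13.5%) in adenoma, with a median of -0.20. Sco2, which delivers copper to complex IV, fell by 2.96 in carcinoma (SE 0.13, adjusted p = 2.7e-13) and by 1.13 in adenoma (SE 0.13, adjusted p = 5.7e-06). Ndufaf6 fell by 2.06 in carcinoma and Cox16 by 1.12 in adenoma. Among the risers were Uqcc2 (0.73) and Higd1a (0.53) in carcinoma and Cox17 (0.81) and Coa3 (0.535) in adenoma. Both adenoma calls were lost without probe sets of shared probes. Of 19 genes for other routes of electron entry, ubiquinone and cytochrome c, 16 fell (84.2%) and none rose in carcinoma (median -0.84), led by the proline dehydrogenase gene Prodh at -4.27 (SE 0.23) and the ubiquinone synthesis gene Coq8a at -4.16 (SE 0.14). In adenoma 5 of these fell (26.3%) and 2 rose, 1 under either other scaling, with Coq8a at -0.90 and Etfa, which takes electrons from fatty acid oxidation, at -0.65. The risers were Gpd2 at 0.70 and Coq10b at 0.46, the call of Coq10b being lost under either other scaling.

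Of 18 genes of pyruvate dehydrogenase and the citric acid cycle 10 fell (55.6%) and 4 rose (22.2%) in carcinoma. Pcx, pyruvate carboxylase, fell by 4.31 and the succinyl-CoA ligase gene Suclg2 by 3.31, while Idh3a, the catalytic subunit of the NAD-dependent isocitrate dehydrogenase, rose by 1.72 and citrate synthase, Cs, by 0.90. In adenoma 4 rose (22.2%) and 5 fell (27.8%): Idh3a rose by 1.53 and Idh2 by 1.33, and Sucla2 fell by 1.12 and Dlst by 0.77. Of 76 mitochondrial ribosomal protein genes 46 fell (60.5%) and 7 rose (9.2%) in carcinoma, and 10 fell (13.2%, near the 11.3% of all genes) and 4 rose in adenoma. Under centring 61 fell and 1 rose in carcinoma, and 18 fell and 3 rose in adenoma.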

How the data were processed

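RNA of 20 mouse liver samples was hybridised to Affymetrix arrays. The deposited table holds log2 values for each probe set, which the authors made with RMA per the submitters' processing notes; its version and settings are not given in the sources used here. RMA as usually run corrects background, equalises probe distributions and summarises probes, and a shift of all genes would then not be seen. The gene-level values here were not equal over the arrays, with a median gene of 6.57 in untreated liver and 6.79 in carcinoma. The reason was not settled. The table held 45037 probe sets; 34945 had 1 gene symbol in the platform annotation, 932 several and 9160 none. Genes were fitted together in limma 3.58.1 (R 4.3.3) over the 4 groups, with Benjamini-Hochberg adjustment over 18193 genes and a threshold of 0.05. Alternatives were the mean of probe sets, other probe set kinds, a filter on dim genes, centring, quantile normalization, array weights, a robust trend, a replicate block, separate fits and leaving out arrays. The fit was tested on simulated data. Figures were drawn with matplotlib 3.10.9.

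Members and lists were chosen with earlier results of these data known. Named were the 8 largest called rises and falls of each comparison (groups apart in the comparisons of 2 groups), a panel of isoforms and catalytic subunits, members with opposed probe sets, and up to 2 genes a direction from each other list. Uqcr10, Uqcr11, Ndufa1, Atp5md and the dim Cox7b2 and Ndufb4 were named after their values were seen.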

Additional observations from a re-analysis of the deposited data

Results flagged for a closer look

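On single arrays, 15 of 224 groups of 5 values (6.7%) held a value far from the other 4, where chance gives about 1 in 20. In untreated liver these were array 3 for Atp5l (12.89), Ndufa4 (13.64) and Ndufa8 (11.89), array 2 for Cox8b (7.32), array 1 for Cox8c (7.98) and array 4 for Ndufa10 (12.16). Under phenobarbital they were array 4 for Atp5g2 (11.09) and Cox5b (13.36), array 5 for Cox4i2 (5.89) and array 3 for Cox7a2l (10.83) and Cox8b (5.88). Among the tumours they were carcinoma array 5 for Cox7c (7.34), adenoma array 2 for Cox5b (13.75) and Ndufs1 (11.65), and adenoma array 4 for Cox7a1 (4.78). The Cox8b value of 7.32 compares with 5.10 to 5.48 on the other untreated arrays, and the Cox7a1 value of 4.78 with 6.86 to 7.35 on the other adenoma arrays.

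In 24 genes (28.9%, against 46.7% of all genes) the adenoma difference and the carcinoma difference were unlike by limma's test of the difference itself. The 20 positive ones were 24.1% of the members, near the 23.2% of all genes. The 4 negative ones were 4.8%, against 23.5%. The value was positive, that is less of a fall or more of a rise in adenoma, for Uqcrq (1.11), Sdhc (1.03), Ndufa10 (1.02), Ndufb9 (0.93), Uqcrfs1 (0.74), Ndufa6 (0.73), Cyc1 (0.69), Ndufa8 (0.68) and Ndufv1 (0.61). It was also positive for Cox6a2 (0.56), Ndufa4 (0.54), Ndufa3 (0.53), Sdhd (0.48), Cox5b (0.48), Ndufs3 (0.46), Cox6a1 (0.41), Ndufb7 (0.37), Atp5g3 (0.35), Cox6b1 (0.35) and Uqcrc2 (0.33). It was negative for Cox7c (-1.68), Cox6b2 (-1.48), Uqcrh (-0.63) and Atp5l (-0.41). Without probe sets of shared probes Uqcrq stood at -0.015 (adjusted p = 0.96). Under quantile normalization the positive calls of Ndufa4, Ndufa3, Sdhd, Cox5b, Ndufs3, Cox6a1, Ndufb7, Atp5g3, Cox6b1 and Uqcrc2 were lost (adjusted p of 0.082 to 0.76). Without untreated arrays 3 and 4 the calls of Cox6a2, Ndufa4, Ndufa3, Sdhd, Ndufs3, Ndufb7 and Atp5l were lost (0.052 to 0.13). Some calls were lost without 1 array. Uqcrc2 was lost without untreated array 2 or 5, carcinoma array 5 or adenoma array 2 (adjusted p of 0.051 to 0.061). Ndufs3 was lost without any single array save untreated 3, carcinoma 3 or 5 and adenoma 1, 3 or 4 (0.052 to 0.075). Sdhd was lost without untreated array 3, 4 or 5, phenobarbital array 1, 2, 3 or 4, carcinoma array 1 or 5, or adenoma array 1, 2 or 5 (0.053 to 0.075). Cox6a2 was lost without any single array save untreated 3, phenobarbital 2, carcinoma 2 or 3 and adenoma 1, 3 or 5 (0.052 to 0.078). Ndufb7 was lost without untreated array 3 or 4, phenobarbital array 4 or 5, carcinoma array 1 or 4, or adenoma array 2 or 4 (0.054 to 0.066). Atp5l was lost without any single array save untreated 3, carcinoma 4 or 5 and adenoma 1 or 5 (0.051 to 0.096).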

How the results depend on the processing

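The counts of genes called were sensitive to the scaling of the arrays. In carcinoma, lower calls became 29 with quantile normalization, higher calls 13 with it and 2 with centring, the filter on dim genes or only the groups compared, and the median -0.08 with quantile normalization and -0.55 with centring. In adenoma against phenobarbital, higher calls became 2 with the mean of probe sets and 1 with centring. In adenoma against carcinoma, higher calls became 15 with quantile normalization and 17 with only the groups compared, and lower calls 18 and, with centring, 5. For the difference between the tumours, higher calls became 32 with centring and 10 with quantile normalization, lower calls 2 with the filter and 8 with quantile normalization, and the median 0.34 and 0.016. Over all genes, phenobarbital calls became 218 with array weights and 278 with only the groups compared, and the filter left 7094 calls in carcinoma and 6802 in adenoma against carcinoma, with fewer genes tested. Leaving out 1 array gave 23 to 39 phenobarbital calls over all genes (26, 25 and 23 without phenobarbital array 1, 2 or 3), 44 to 52 lower and 3 to 5 higher members in carcinoma, 16 to 23 and 3 to 4 in adenoma, and 26 to 35 higher and 7 to 10 lower in adenoma against carcinoma. The difference between the tumours then had 16 to 26 higher and 3 to 5 lower.

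Among values called under either setting, single genes changed sign as follows; uncalled values near 0 also changed sign and are not listed. With the mean of probe sets, Atp5a1 in carcinoma became -0.37 and Atp5c1 0.27, and Atp5c1 became -0.47 in adenoma against carcinoma and -0.42 between the tumours. Ndufb8 became 0.029 in adenoma, 0.43 against carcinoma and 0.66 between the tumours. Without probe sets of shared probes Atp5c1 became 0.96, -1.21 and -1.15 in the same order, and Uqcrq -0.015 between the tumours. Centring gave Atp5g2 -0.022 in carcinoma. Quantile normalization gave, in carcinoma, Cox4i1 0.16, Cox6b1 0.078 and Cox6c 0.33, and in adenoma against carcinoma Atp5pb -0.015, Cox6b1 -0.02 and Cox7a2 -0.26. The cause was not tested. Arrays of the same replicate number shared little of their deviation from the group mean (correlations of -0.12 to 0.13, 1 of 30 over 0.1). Whether they came from the same animals cannot be told from this, since a tumour need not deviate as its host liver does. A replicate block gave 49 lower and 5 higher genes in carcinoma and 22 and 3 in adenoma. With 5 arrays a group, the number of arrays limits the precision.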

Other observations

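Genes outside the chain that work on it moved in other ways. Slc25a4, the heart and muscle form of the carrier that exchanges ADP for ATP across the inner membrane, read 8.01, 7.75, 8.48, 8.38 and 7.93 in untreated liver and 13.48, 13.79, 13.86, 13.32 and 13.61 in carcinoma. Its rise of 5.50 (SE 0.21, adjusted p = 3.2e-14 in limma) put every carcinoma array far above every untreated one. In adenoma it stood at 0.72 (adjusted p = 0.019), a call lost without adenoma array 4 and with the mean of probe sets. The form found in most tissues, Slc25a5, fell by 0.47 in carcinoma, a call lost with quantile normalization. Of the 11 carriers, uncouplers and outer membrane channels, 4 rose (36.4%) and 3 fell (27.3%) in carcinoma, near the 31.5% and 37.7% of all genes, and their median of 0.12 was -0.10 under centring.

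Of 19 regulators of mitochondrial gene expression 9 fell (47.4%, against 37.7% of all genes) and 4 rose (21.1% against 31.5%) in carcinoma. In adenoma 5 fell (26.3% against 11.3%), 8 under centring, and 1 rose. The coactivator gene Ppargc1b fell by 2.04 (SE 0.18) in carcinoma and by 1.10 (SE 0.18) in adenoma, and Polg2, a subunit of the mitochondrial DNA polymerase, by 1.84 and 0.99. The related coactivator Pprc1 rose by 1.71 and 0.72. Ppargc1a, another coactivator gene, rose by 1.38 (SE 0.45, adjusted p = 0.01 in limma) in carcinoma. In adenoma it stood at -0.06 without a call. Tfam was called lower in both, at -0.75 and -0.58. Nrf1 stood at 0.23 and -0.23 and Esrra at 0.12 and 0.08, without a call. Gabpa stood at -0.19 without a call in carcinoma and was called at -0.32 in adenoma. Whether Nrf1 and Gabpa were called changed under some alternatives. Of 24 genes for protein import and chaperones, 14 fell (58.3%) and 6 rose in carcinoma, with a median of -0.48. In adenoma 11 rose (45.8%, against 13.5% of all genes) and 2 fell, with a median of 0.17. Under centring 7 rose, with a median of 0.09, and under quantile normalization 10, with 0.10. Timm17a, part of the inner membrane import channel, rose by 0.93 in adenoma and Timm9, a small chaperone between the membranes, fell by 1.12. Of 13 genes of the response to low oxygen 6 rose (46.2%) and 3 fell (23.1%) in carcinoma, with the glucose transporter gene Slc2a1 at 1.87 and Epas1, the HIF-2 alpha gene, at -2.19. Lonp1, a protease of the matrix, fell by 1.04 in carcinoma and rose by 0.87 in adenoma.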
